A study of Mus musculus with 9 samples.

Results

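Somatostatin and the genes that mark delta cells were followed in mouse pancreatic islets, as 10 rows of the deposited count table found by gene symbol among 25611 rows. The members were the hormone gene Sst, the transcription factor gene Hhex, the receptor genes Ghsr, Casr, Lepr and Ptprz1, and Fxyd6, Frzb, Spock3 and Hadh. Each symbol matched 1 row, and no member's span overlapped another row of the table. RNA was sequenced from islets of 4-week-old mice, 3 labelled knockout with the genotype Pdx1-Cre;Glis3fl/fl and 4 control with Glis3fl/fl alone. Both groups carry the conditional Glis3 allele, and only the labelled knockout group carries the Cre driver, so effects of the driver and of the deletion cannot be told apart. The Pdx1 promoter drives Cre in pancreatic progenitors, from which all islet endocrine cells arise. Glis3 binding came from a separate chromatin immunoprecipitation, 1 list of 21254 peaks of 200 bp from islets of 8-week-old Glis3-eGFP mice pulled down with an antibody against GFP, without a replicate. Its input library was not analysed here.

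Delta cells are the somatostatin-secreting cells of the islet and lie among the insulin-secreting beta cells and glucagon-secreting alpha cells. Somatostatin acts on its neighbours through inhibitory G protein-coupled receptors and holds back both insulin and glucagon release. In mice the homeobox factor Hhex is needed for delta cell differentiation, ghrelin acts on delta cells through Ghsr, and urocortin 3 from beta cells drives somatostatin release through Crhr2.

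Total counts ran from 12099365 to 22578480 per labelled knockout library and from 18297697 to 48054551 per control library. The labelled tissue showed its hormones: insulin, glucagon, somatostatin and pancreatic polypeptide genes had counts in all 7 libraries. The targeted gene Glis3 stood at 52.0, 52.7 and 57.7 CPM (TMM-normalised counts per 1000000 counts) in labelled knockouts 1 to 3 and at 39.5, 46.8, 31.2 and 33.5 CPM in controls 1 to 4 (log2 fold change 0.52, SE 0.14, edgeR adjusted p = 0.0257). The table holds 1 count per gene and none for the deleted exons alone, so this level cannot check the deletion, and the group is called labelled knockout. Nothing in the labels beyond the stated numbers of mice says how the samples were handled, so the p-values measure the spread between these 7 samples.

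The promoters of Sst, Fxyd6 and Frzb are shown because they cover the hormone itself, which had no Glis3 peak near its start, and the members with a peak across their 5′ end. Each is the strand of transcription from 250 bases before to 50 bases after the gene start, from RefSeq on GRCm38.p6, the assembly that mm10 names. In Sst (chr16:23890795-23891094, minus strand) capitals mark TGACGTCA, the cyclic AMP response element, which begins 48 bases before the start. In Fxyd6 (chr9:45369935-45370234, plus strand) and Frzb (chr2:80447347-80447646, minus strand) capitals mark the bases covered by a Glis3-GFP peak, 119 in Fxyd6 and 73 in Frzb.
Sst: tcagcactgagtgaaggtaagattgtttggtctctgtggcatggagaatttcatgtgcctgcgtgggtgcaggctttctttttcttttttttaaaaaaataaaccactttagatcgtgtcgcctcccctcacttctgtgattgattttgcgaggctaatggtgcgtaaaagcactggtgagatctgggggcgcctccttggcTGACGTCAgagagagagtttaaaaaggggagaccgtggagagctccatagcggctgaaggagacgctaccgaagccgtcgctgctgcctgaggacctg
Fxyd6: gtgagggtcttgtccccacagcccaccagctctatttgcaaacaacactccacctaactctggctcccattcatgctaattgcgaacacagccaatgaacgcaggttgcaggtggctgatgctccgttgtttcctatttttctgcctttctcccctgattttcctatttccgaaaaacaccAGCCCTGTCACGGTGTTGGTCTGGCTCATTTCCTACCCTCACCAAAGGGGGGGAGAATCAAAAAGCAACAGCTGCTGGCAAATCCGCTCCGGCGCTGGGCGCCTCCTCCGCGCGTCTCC
Frzb: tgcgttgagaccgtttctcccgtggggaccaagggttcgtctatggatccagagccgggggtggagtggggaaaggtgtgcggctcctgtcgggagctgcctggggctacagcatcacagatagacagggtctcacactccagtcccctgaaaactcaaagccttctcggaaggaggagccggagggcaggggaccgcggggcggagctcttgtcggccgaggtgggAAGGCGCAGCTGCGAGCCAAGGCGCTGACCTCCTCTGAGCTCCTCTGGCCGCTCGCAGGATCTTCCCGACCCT

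Motif letters were searched on both strands in the promoter windows, of which 12 matched the 10 members. The response element TGACGTCA was found in Sst alone among the members and in 1.79% of all 32851 windows. The Glis binding letters TGGGGGGT were in none of the 12 windows and in 1.53% of all. The shorter TGGGGGG, which every match of the longer one also contains, was in the windows of Hadh and Hhex and in 8.47% of all, and it was not in the capitals of Fxyd6 or Frzb. These matches describe letters and not binding.

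Of the 10 members, all passed the filter on low counts, 1 rose (Ptprz1), 1 fell (Hadh) and 8 did not pass the test at an edgeR adjusted p under 0.05. That is 2 of 10, where 14.0% of 14529 tested genes were called in either direction, 5.25% lower and 8.73% higher. Over all genes 1268 were called higher and 763 lower, and with libraries scaled by size alone 1851 and 324. Members had a median log2 fold change of -0.19, and 6 of the 10 had a value below 0, beside a median of 0.01 over all tested genes. The CPM of the 2 groups did not overlap for 4 members (Ghsr, Ptprz1, Frzb and Hadh), against 26.6% of all tested genes. In bulk islets, fewer cells of a type and less RNA per cell cannot be told apart.

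**Figure D1:**
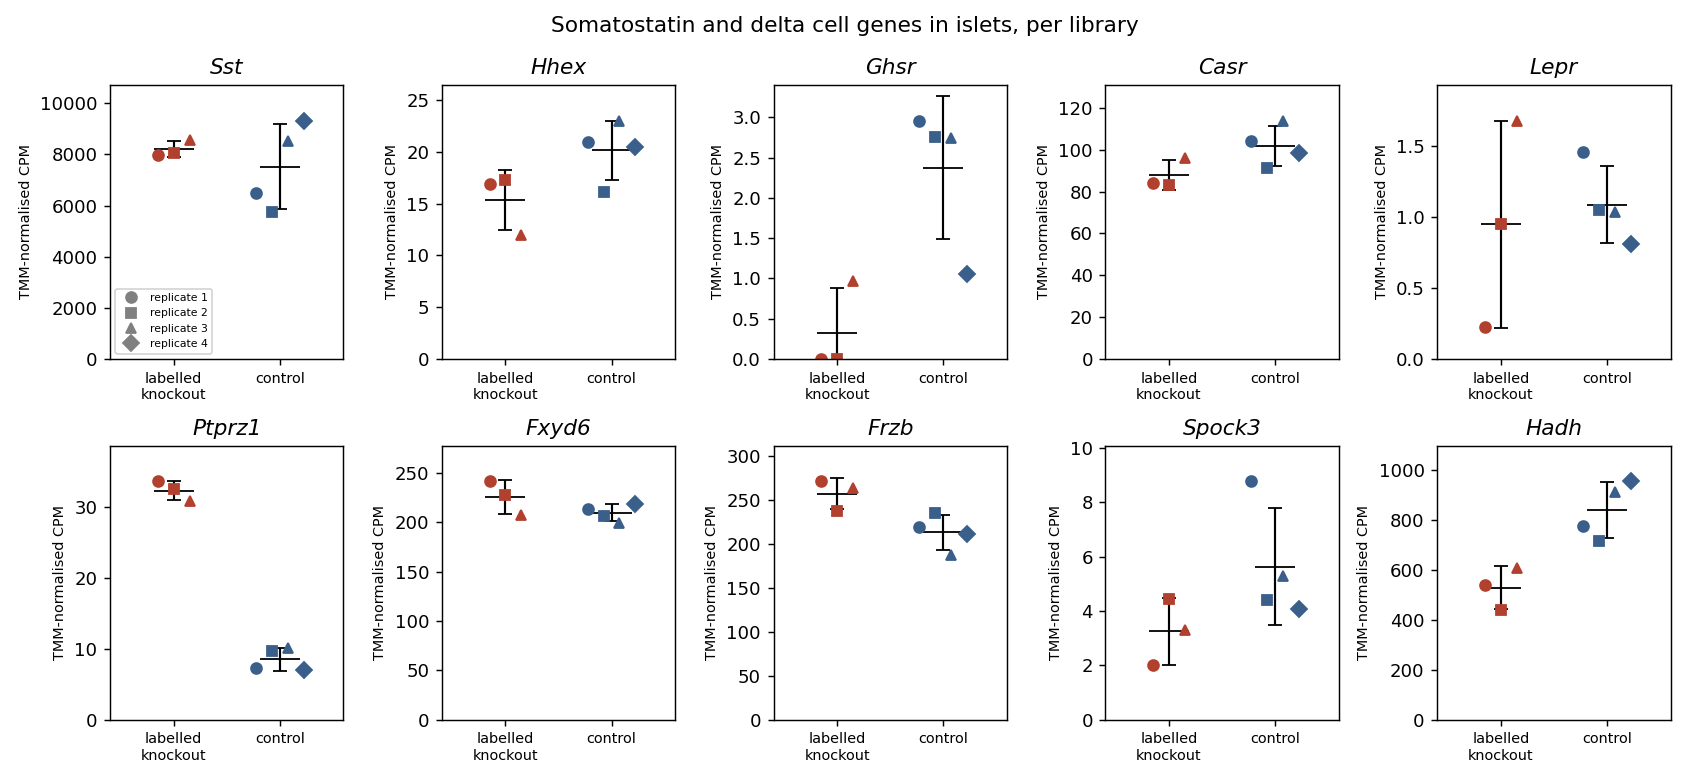
TMM-normalised CPM (y axis, from 0) of each of the 10 genes in the 3 labelled knockout libraries (red, left) and the 4 control libraries (blue, right), with marker shapes for replicate numbers and black bars for mean ± SD. Ptprz1 sits at 30.9 to 33.6 CPM in the labelled knockouts and at 7.03 to 10.2 CPM in the controls, and Sst overlaps between the groups.

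The hormone gene Sst (Entrez 20604, chr16:23889581-23890844, minus strand, mm10) had 7989, 8055 and 8551 CPM in labelled knockouts 1 to 3 and 6478, 5766, 8512 and 9319 CPM in controls 1 to 4. The labelled knockouts sat close together inside the wider range of the controls. The means were 8198 ± 307 CPM in labelled knockouts (SD, n = 3) and 7519 ± 1672 CPM in controls (SD, n = 4). The log2 fold change was 0.12 (SE 0.16, edgeR adjusted p = 0.677), and the controls alone spread further than the means lay apart. The TMM scaling factors of controls 1 to 4 were 1.04, 1.07, 0.898 and 0.812, in the reverse order of their Sst CPM. The part of these factors in the spread was not tested.

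As a share of all counts, Sst took 0.890%, 0.894% and 0.856% of labelled knockouts 1 to 3 and 0.671%, 0.617%, 0.765% and 0.757% of controls 1 to 4. Every labelled knockout share was above every control share. Ins2, the insulin 2 gene, took 7.17% to 12.2% of counts in labelled knockouts and 22.3% to 28.4% in controls, so the denominators differed. With libraries scaled by size alone, Sst had a log2 fold change of 0.32 (edgeR adjusted p = 0.0419), under a scaling that moved the median of all genes by 0.17.

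Set against other hormones in the same library, Sst reads per 100 reads of Gcg, the glucagon gene, were 20, 19.8 and 19.4 in labelled knockouts 1 to 3 and 14.4, 16.2, 16.1 and 12.7 in controls 1 to 4. The means were 19.7 ± 0.29 in labelled knockouts (SD, n = 3) and 14.8 ± 1.65 in controls (SD, n = 4; difference 4.89, exact 2-sided permutation p = 0.0571). Per 100 Ins2 reads, Sst had 12.4, 9.49 and 7.03 reads in labelled knockouts 1 to 3 and 2.67 to 2.92 reads in the controls (difference 6.89, exact 2-sided permutation p = 0.0571). Neither ratio overlapped between the groups, nor did the share of all counts (difference 0.177 percentage points, exact 2-sided permutation p = 0.0571). That p is the smallest that 3 against 4 libraries can give, and it stayed at 0.0571 after adjustment over these 3 comparisons. All 3 rest on the same Sst counts, and the ratios to Gcg and Ins2 were chosen after seeing the data. These p-values therefore describe the separation and are not independent support for it. By themselves Gcg (log2 fold change -0.32, SE 0.20, edgeR adjusted p = 0.343) and Sst did not pass the test, while Ins2 fell (-1.59, SE 0.23, edgeR adjusted p = 4.0e-04).

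**Figure D2:**
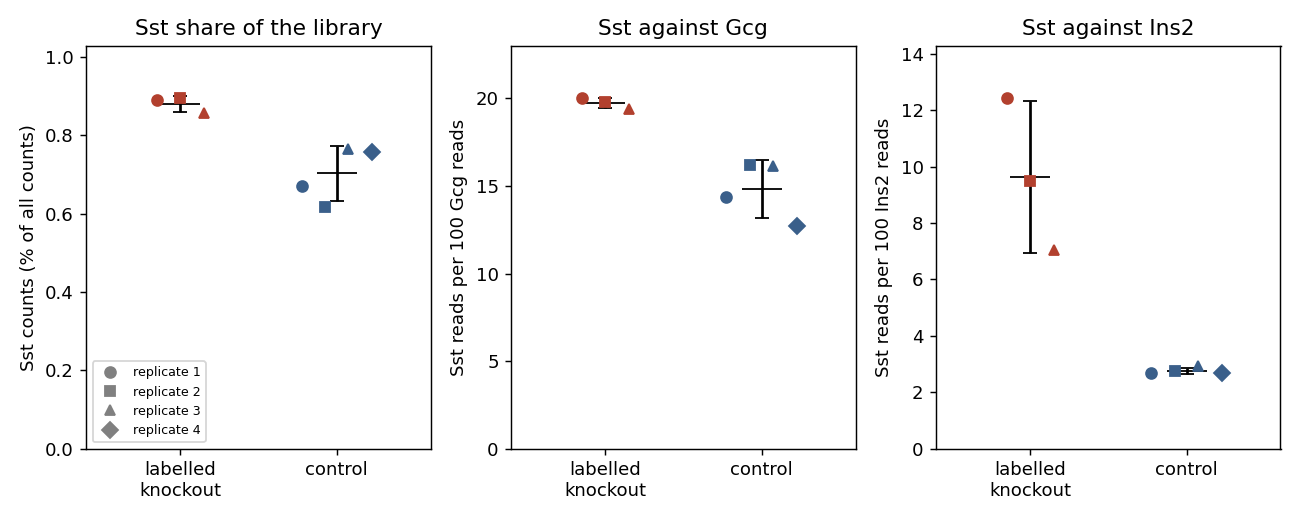
Sst in each library as a percentage of all counts (left), per 100 Gcg reads (middle) and per 100 Ins2 reads (right), each y axis from 0, with labelled knockouts in red, controls in blue and black bars for mean ± SD. On all 3 scales the labelled knockout libraries lie above every control library, by the most against Ins2 (7.03 to 12.4 reads in labelled knockouts and 2.67 to 2.92 in controls).

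Hhex (Entrez 15242, chr19:37434841-37440731, plus strand), the delta cell transcription factor gene, had 16.9, 17.2 and 12 CPM in labelled knockouts 1 to 3 and 20.9, 16.2, 23.0 and 20.5 CPM in controls 1 to 4. Control 2 lay below the 2 highest labelled knockouts, so the groups overlapped. The log2 fold change was -0.39 (SE 0.18, edgeR adjusted p = 0.182). Per 1000 Sst reads, Hhex had 1.88 ± 0.42 reads in labelled knockouts and 2.73 ± 0.42 reads in controls (SD, n = 3 and 4).

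Among the receptor genes, Ptprz1 (Entrez 19283, chr6:22875502-23052916, plus strand) rose. It encodes a receptor-type tyrosine phosphatase that binds pleiotrophin and contactin. Its levels were 33.6, 32.6 and 30.9 CPM in labelled knockouts 1 to 3 and 7.31, 9.76, 10.2 and 7.03 CPM in controls 1 to 4. The groups lay far apart, with a narrow range in each. The fold change was 3.77 (log2 1.92, SE 0.17, edgeR adjusted p = 5.5e-06). Per 1000 Sst reads, Ptprz1 had 3.95 ± 0.31 reads in labelled knockouts and 1.19 ± 0.39 reads in controls (SD, n = 3 and 4), and with libraries scaled to equal Sst counts its log2 fold change was 1.72 (SE 0.28, edgeR adjusted p = 3.7e-06).

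Ptprz1 is also a gene of glia, and the 7 Schwann and glial markers, among them Sox10, S100b, Gfap, Cdh19 and Foxd3, were all tested and none passed by edgeR, with 1 (Gfap) at an unadjusted p under 0.05 and called by DESeq2 and limma-voom. Their summed level was 32.7 to 54.4 CPM in labelled knockouts and 34.1 to 48.7 CPM in controls, ranges that overlap, and no marker was at 0 in a whole group. The part of such cells in the level of Ptprz1 was not tested.

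Ghsr (Entrez 208188, chr3:27371351-27378010, plus strand), the ghrelin receptor gene, had 0, 0 and 22 counts in labelled knockouts 1 to 3 and 85, 142, 45 and 22 counts in controls 1 to 4. In CPM these were 0, 0 and 0.974 in the labelled knockouts and 2.96, 2.76, 2.74 and 1.05 in the controls. Labelled knockout 3 lay just under control 4, and the other libraries of the groups were far apart. The gene passed the filter through the controls, since 1 labelled knockout library and 4 control libraries reached the filter's level. Its log2 fold change was -2.77 (SE 1.0, edgeR adjusted p = 0.0862), short of the threshold. A floor of 3 counts allows up to 0.223 CPM in labelled knockout 1 and 0.13 CPM in labelled knockout 2. Without labelled knockout 3 the gene was called (edgeR adjusted p = 0.00218, a range of 0.00218 to 0.22 over the alternatives), as it was with libraries scaled to equal Sst counts (edgeR adjusted p = 0.0483). Labelled knockout 3 held all the labelled knockout counts of Ghsr, so leaving it out sets a group at 0 against the controls. Floors of this kind cover counting error only. Ghrl, the gene of the ligand ghrelin, had 22.3 ± 6.19 CPM in labelled knockouts and 20.0 ± 6.66 CPM in controls (SD, n = 3 and 4). Its log2 fold change was 0.15 (SE 0.26, edgeR adjusted p = 0.77), and it had the opposite sign without labelled knockout 1 (-0.02) or control 4 (-0.01).

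Casr (Entrez 12374, chr16:36490585-36562134, minus strand), the extracellular calcium receptor gene, had 84.1, 83.3 and 96.3 CPM in labelled knockouts 1 to 3 and 104, 91.3, 114 and 98.6 CPM in controls 1 to 4. Only control 2 fell within the range of the labelled knockouts. The log2 fold change was -0.21 (SE 0.12, edgeR adjusted p = 0.263). Lepr (Entrez 16847, chr4:101717407-101815354, plus strand), the leptin receptor gene, was near the limit of detection, with 3, 22 and 38 counts in labelled knockouts 1 to 3 and 42, 54, 17 and 17 counts in controls 1 to 4. These correspond to 0.223, 0.950 and 1.68 CPM in labelled knockouts and 1.46, 1.05, 1.03 and 0.813 CPM in controls. Labelled knockouts held both the lowest and the highest library. The log2 fold change was -0.17 (SE 0.66, edgeR adjusted p = 0.902), with the opposite sign without labelled knockout 1 (0.26) or control 1 (0.01).

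Hadh (Entrez 15107, chr3:131233420-131272101, minus strand) fell. It encodes the mitochondrial short-chain 3-hydroxyacyl-CoA dehydrogenase of fatty acid oxidation, which beta cells express as well. Levels were 541, 439 and 607 CPM in labelled knockouts 1 to 3 and 776, 718, 912 and 954 CPM in controls 1 to 4. Every labelled knockout was below every control. The fold change was 1.59 towards lower levels (log2 -0.67, SE 0.15, edgeR adjusted p = 0.00833). With libraries scaled to equal Sst counts the log2 fold change was -0.82 (SE 0.18, edgeR adjusted p = 8.6e-04). Beta cell markers moved the same way: of Ins1, Ins2, Mafa, Slc2a2 and G6pc2, 4 of 5 fell (all but G6pc2, and Mafa lost its call without control 1, at an edgeR adjusted p of 0.0503), and their summed level was 101500 to 200000 CPM in labelled knockouts and 307900 to 520700 CPM in controls. No beta marker was at 0 in a whole group, and their part in the level of Hadh was not tested.

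Fxyd6 (Entrez 59095, chr9:45370185-45396159, plus strand), which encodes a small membrane regulator of the sodium pump, had 242, 228 and 208 CPM in labelled knockouts 1 to 3 and 214, 207, 200 and 219 CPM in controls 1 to 4. The groups overlapped. The log2 fold change was 0.10 (SE 0.11, edgeR adjusted p = 0.606), and -0.07 with libraries scaled to equal Sst counts. Frzb (Entrez 20378, chr2:80411970-80447396, minus strand) encodes a secreted Wnt antagonist and had 271, 237 and 264 CPM in labelled knockouts 1 to 3 and 219, 235, 187 and 212 CPM in controls 1 to 4. Labelled knockout 2 and control 2 were separated by under 2 CPM. Its log2 fold change was 0.27 (SE 0.12, edgeR adjusted p = 0.166), and 0.07 with libraries scaled to equal Sst counts. Spock3 (Entrez 72902, chr8:62951232-63357096, plus strand), a gene of the testican family of extracellular proteoglycans, had 2.0, 4.45 and 3.32 CPM in labelled knockouts 1 to 3 and 8.77, 4.39, 5.29 and 4.07 CPM in controls 1 to 4. The groups overlapped at labelled knockout 2, and control 1 was the highest library. Its log2 fold change was -0.78 (SE 0.36, edgeR adjusted p = 0.184).

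**Figure D3:**
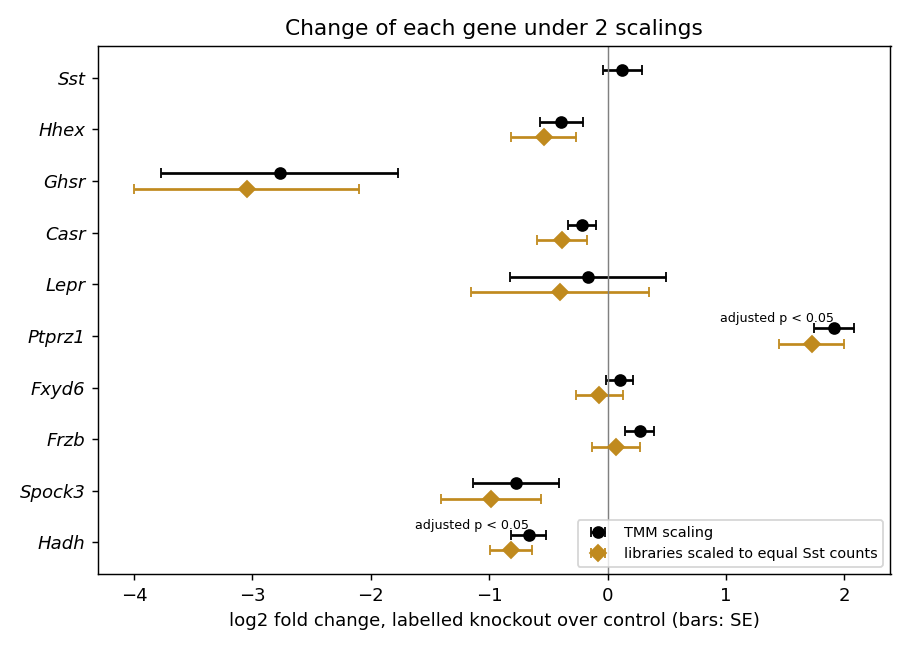
Log2 fold change of labelled knockout over control (x axis) with SE bars for each gene, under TMM scaling (black circles) and with libraries scaled to equal Sst counts (ochre diamonds); the words adjusted p < 0.05 belong to the TMM values. Ptprz1 lies at 1.92 and 1.72 and Hadh at -0.67 and -0.82, while Fxyd6 changes sign between the scalings (0.10 and -0.07).

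None of the other members followed Sst closely over the 7 libraries, and correlations among those members were not computed. Pearson r of log2 CPM with Sst ran from -0.38 for Spock3 to 0.27 for Ptprz1, and was 0.04 for Hhex. The 5 genes most like Sst, among 8583 other genes with a mean of at least 10 CPM, were Snhg8 (r = 0.99), Rps21, Lppos, Ube2r2 and Ndufs6 (r = 0.97), none of them a member. Their log2 fold changes were 0.09 to 0.33, and none passed the test (edgeR adjusted p from 0.479 to 0.846). The 5 were picked as the highest of 8583 r values over 7 libraries, so a high r follows from the picking alone. It is no sign of a tie to somatostatin. These values describe 7 libraries that differ in group, depth and scaling factor.

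Other delta cell genes were taken from a list of 4, chosen like the other lists with earlier results of these data known. Of these 2 rose, none fell and 2 did not pass (median log2 fold change 0.59, beside 0.01 for all tested genes). Rbp4, the retinol-binding protein gene, had 1269, 946 and 1571 CPM in labelled knockouts 1 to 3 and 244, 237, 293 and 386 CPM in controls 1 to 4. Labelled knockouts lay above all controls (log2 fold change 2.12, SE 0.20, edgeR adjusted p = 7.4e-06). Ffar4, a receptor for long-chain fatty acids, had 34.8, 22.9 and 29.8 CPM in labelled knockouts and 17.1, 16.9, 16.8 and 14.8 CPM in controls (log2 0.83, SE 0.16, edgeR adjusted p = 0.00339). Crhr2, the urocortin receptor gene, was low in both groups, at 0.708 to 3.27 CPM in labelled knockouts and 1.46 to 2.16 CPM in controls. Its log2 fold change was 0.13 (SE 0.52, edgeR adjusted p = 0.904) and was negative without labelled knockout 1 (-0.35). Bche, the butyrylcholinesterase gene, did not pass (0.36, SE 0.62, edgeR adjusted p = 0.763).

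Genes of hormone processing and of somatostatin reception were counted next. Of 7 genes of prohormone processing 5 rose, none fell and 2 (Furin and Pcsk1n) did not pass. The list's median log2 fold change was 0.75, beside 0.01 for all tested genes, of which 8.73% were called higher. The convertase genes Pcsk1 (log2 1.47, SE 0.11, edgeR adjusted p = 1.8e-06), Pcsk2 (0.75, SE 0.12, edgeR adjusted p = 6.0e-04) and Pcsk6 (0.74, SE 0.16, edgeR adjusted p = 0.00625) rose with the carboxypeptidase gene Cpe (0.86) and the Pcsk2 chaperone gene Scg5 (0.79). These genes of hormone processing are not confined to delta cells. Of 5 somatostatin receptor genes and the somatostatin paralogue Cort, 3 were tested and none was called by edgeR's quasi-likelihood test, with 1 (Sstr1) at an unadjusted p under 0.05 and called by DESeq2, and none called by limma-voom. Sstr3 had 102, 90.4 and 128 CPM in labelled knockouts 1 to 3 and 138, 182, 114 and 118 CPM in controls 1 to 4 (log2 -0.37, SE 0.17, edgeR adjusted p = 0.184). Sstr1 had 3.04, 7.17 and 3.85 CPM in labelled knockouts and 2.82, 2.02, 1.89 and 0.957 CPM in controls. The groups of Sstr1 did not overlap, and its log2 fold change of 1.28 (SE 0.42) had an edgeR adjusted p of 0.0609. It was called with library size alone (edgeR adjusted p = 0.0422) and without labelled knockout 1 (0.0389), with a range of 0.0266 to 0.265 over the alternatives. Sstr2 did not pass (-0.68, SE 0.48, edgeR adjusted p = 0.383). Sstr5 was below the filter, with 0, 36 and 35 counts in labelled knockouts and 4, 7, 0 and 4 in controls, and Sstr4 had no count in any library.

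For the inputs to delta cells, 7 of 8 genes of ligands and leptin signalling were tested, of which 1 fell and 6 did not pass (median log2 fold change -0.36). Stat3, the transcription factor gene downstream of the leptin receptor among other cytokine receptors, fell (log2 -0.57, SE 0.11, edgeR adjusted p = 0.00373), a call lost with library size alone (edgeR adjusted p = 0.0823; 2.8e-05 to 0.0823 over the alternatives). Ucn3, the urocortin gene of beta cells, had 344, 430 and 620 CPM in labelled knockouts 1 to 3 and 560, 612, 952 and 1062 CPM in controls 1 to 4. The groups overlapped, and the log2 fold change of -0.78 (SE 0.25) had an edgeR adjusted p of 0.0642. It was called with library size alone (edgeR adjusted p = 0.0257), under limma-voom (adjusted p = 0.0436) and without labelled knockout 3 (edgeR adjusted p = 0.0207), control 1 (0.0281) or control 2 (0.0497), with a range of 0.00265 to 0.213 over the alternatives. The leptin gene Lep had no count in any library.

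Partners of the other members were also followed, beside all tested genes, of which 8.73% were called higher and 5.25% lower. Of 8 ligands and partners of Ptprz1, 2 rose, 1 fell and 5 did not pass (median log2 fold change 0.22). Cntn1, the contactin gene, had 108, 84.5 and 120 CPM in labelled knockouts 1 to 3 and 38.0, 30.1, 28.7 and 28.0 CPM in controls 1 to 4 (log2 1.74, SE 0.15, edgeR adjusted p = 3.5e-06). The adhesion gene Ncam1 rose (0.55, SE 0.13, edgeR adjusted p = 0.014), a call lost without labelled knockout 1 (edgeR adjusted p = 0.0514) or labelled knockout 3 (0.0611; 3.8e-04 to 0.0611 over the alternatives). Tnr, which encodes the matrix protein tenascin-R, fell (-1.02, SE 0.19, edgeR adjusted p = 0.00227). The ligand genes Ptn and Mdk did not pass, at -0.02 (SE 0.42, edgeR adjusted p = 0.984) and 0.33 (SE 0.40, edgeR adjusted p = 0.642).

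Of 11 tested sodium pump and FXYD genes, 3 rose, 1 fell and 7 did not pass (median log2 fold change 0.73). The pump subunit gene Atp1b1 rose (0.85, SE 0.13) with Fxyd5 (0.83), while the subunit gene Atp1b2 fell (-0.81, SE 0.17). Among the secreted Wnt antagonists related to Frzb, Sfrp5 fell (-0.83, SE 0.18, edgeR adjusted p = 0.00693) and 4 of the 5 tested did not pass (median 0.23). In the family of Spock3, Spock2 (0.68), Sparc (0.56) and Sparcl1 (0.86) rose and Spock1 (-0.06, SE 0.21, edgeR adjusted p = 0.882) did not pass (median 0.62). Endothelial and mesenchymal cells also express Sparc and Sparcl1. The summed level of 5 endothelial markers, none of which passed by edgeR, DESeq2, limma-voom or an unadjusted p under 0.05, was 512 to 667 CPM in labelled knockouts and 469 to 519 CPM in controls. That of 7 mesenchymal markers, of which Dcn rose (log2 0.92, edgeR adjusted p = 0.0221, and 0.055 to 0.117 without labelled knockout 1 or 2 or control 2, 3 or 4), was 195 to 293 CPM in labelled knockouts and 157 to 208 CPM in controls, with no marker at 0 in a whole group, and their part in these rises was not tested. Among 14 genes of fatty acid oxidation, the pathway of Hadh, 1 rose (Etfb), none fell and 13 did not pass (median 0.00). Etfb (0.53, edgeR adjusted p = 0.0433) lost its call without labelled knockout 1, labelled knockout 3 or any 1 of the 4 controls (edgeR adjusted p from 0.0592 to 0.205 there, and 0.00288 to 0.205 over the alternatives). Under limma-voom Etfb was not called (adjusted p = 0.0724), and under DESeq2 Cpt2 was called lower (-0.38, adjusted p = 0.0437). Without labelled knockout 1, Cpt2 (-0.49, edgeR adjusted p = 0.0311) and Acaa2 (-0.95, edgeR adjusted p = 0.0374) were called lower.

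**Figure D4:**
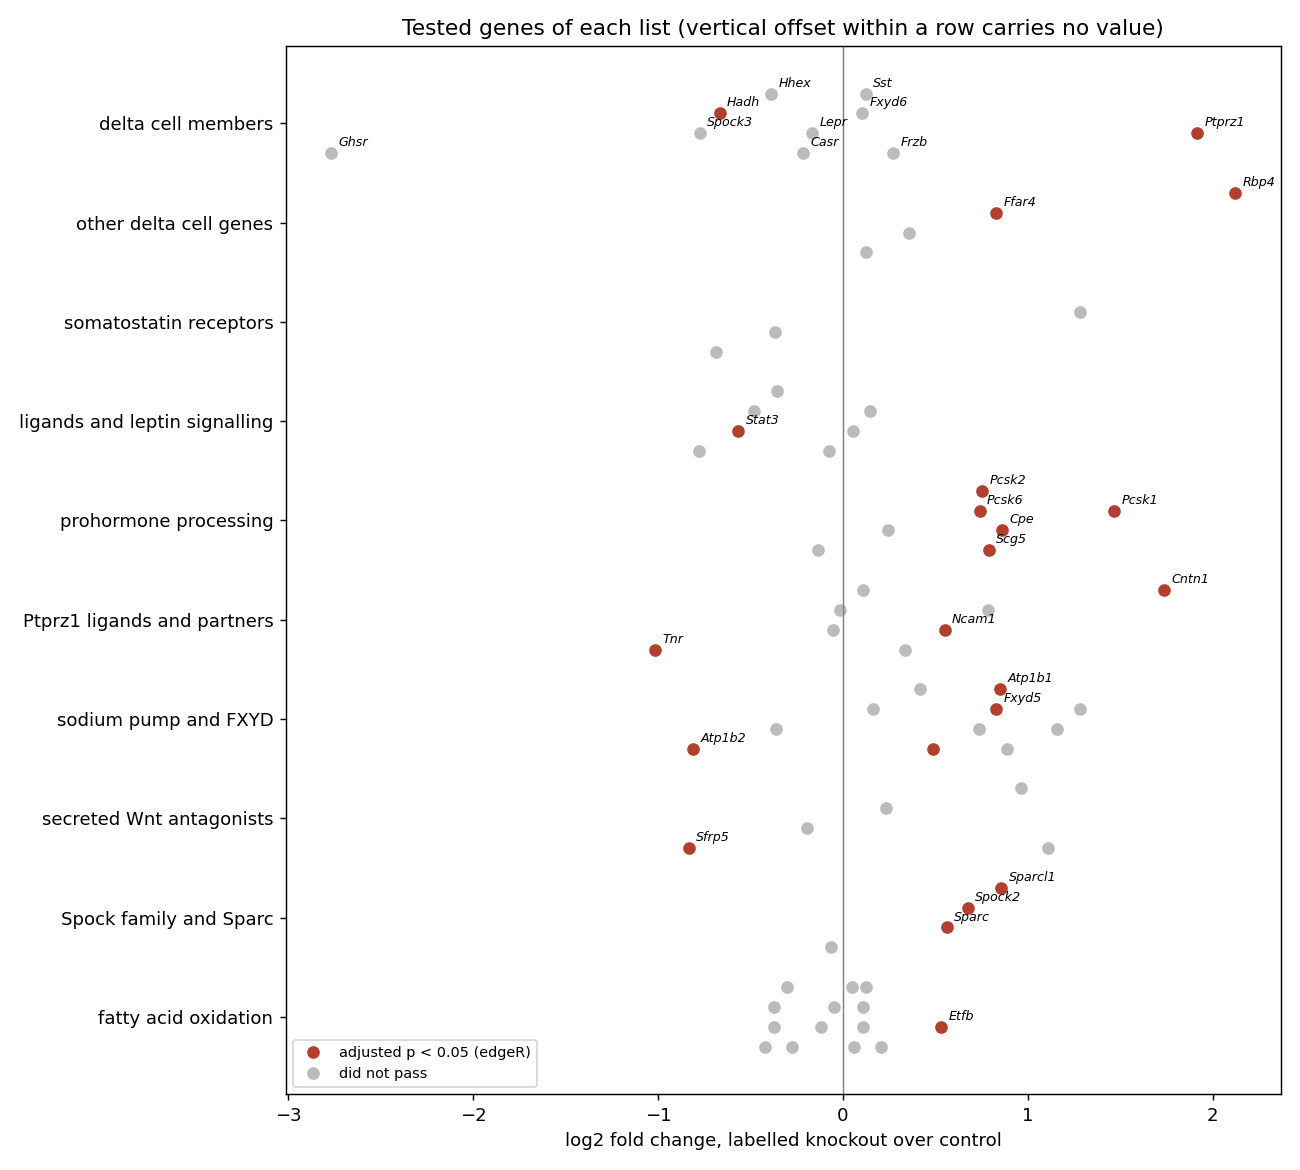
Log2 fold change of labelled knockout over control (x axis) for the tested genes of each list, down the page, red where the edgeR adjusted p was under 0.05 and grey where it was not; names are given for most red points and for the 10 delta cell members. The members span -2.77 (Ghsr) to 1.92 (Ptprz1), and 5 of 7 prohormone processing genes are red, all to the right of 0.

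Markers of further cell types were read in the same libraries. Of 13 islet transcription factor genes 12 were tested, with 3 lower (Neurod1 and Nkx6-1 among them), 2 higher (Isl1 and Rfx6) and 7 not passing. Neurod1 and Rfx6 each lost the call without labelled knockout 1 (edgeR adjusted p = 0.111 and 0.0847) or labelled knockout 3 (0.0591 and 0.0612), and also without either of 2 controls. Neurod1 lost it with library size alone as well (0.0793). Of 5 alpha cell markers 2 fell (Irx1 and Irx2), 2 rose (Gc and Ttr) and 1 did not pass, and the pancreatic polypeptide gene Ppy fell (log2 -3.73, SE 0.42, edgeR adjusted p = 8.4e-04). The calls of Irx1 and Irx2 were each lost without labelled knockout 1 (edgeR adjusted p = 0.167 and 0.105) and without labelled knockout 2, control 3 or control 4. Irx1 also lost it without labelled knockout 3 (0.116) or a filter on low counts (0.0567), and Irx2 without control 1 (0.0606). Both were lost with library size alone (edgeR adjusted p = 0.0627 and 0.197) and under limma-voom (adjusted p = 0.1 and 0.0671). None of 8 acinar markers passed by edgeR without a block, DESeq2, limma-voom or an unadjusted p under 0.05. With a replicate block in edgeR, all 8 were called higher. Their summed level was 1975 to 11120 CPM in labelled knockouts and 629 to 3985 CPM in controls. None of 5 immune markers passed by edgeR, DESeq2 or limma-voom, with 1 (Adgre1) at an unadjusted p under 0.05 (130 to 207 CPM in labelled knockouts and 113 to 172 CPM in controls). Of 4 duct markers 3 were tested, and Spp1 alone rose (log2 4.29, SE 0.27). Krt19 (log2 2.16, SE 1.51, edgeR adjusted p = 0.424) and Sox9 (-0.05, SE 0.50, edgeR adjusted p = 0.962) did not pass, and Cftr was below the filter. Of 7 stomach markers, Gkn3 and Pgc rose, with 129 to 723 and 21 to 789 counts in labelled knockouts and 0 to 3 and 0 to 2 counts in controls. Both passed the filter on low counts only through the labelled knockouts. Gkn3 lost its call without control 1 (edgeR adjusted p = 0.0524) and under limma-voom (adjusted p = 0.0794). Pgc lost it without labelled knockout 3 or any 1 of the 4 controls (edgeR adjusted p from 0.0608 to 0.327), without a filter on low counts (0.0553) and under limma-voom (adjusted p = 0.203). Tff2 did not pass, and Gkn1, Gkn2, Tff1 and Muc5ac had no count in any library. The list's summed level was 39.3 to 163 CPM in labelled knockouts and 1.99 to 16.4 CPM in controls. Their part in the level of Sst, which stomach D cells also make, was not tested.

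Glis3-GFP peaks lay within 50 kb of the gene span for 6 of the 10 members (Sst, Hhex, Casr, Fxyd6, Frzb and Hadh), 19 peaks in all, where 93.7% of tested genes had such a peak. Within 1 kb of the 5′ end there was a peak for 5 of 10 members, where 71.2% of tested genes had one. Among tested genes with a mean under 10 CPM, which include Ghsr, Lepr and Spock3, these shares were 87.7% and 51.1%, and among those at 10 CPM or more 97.6% and 84.4%. Distances run from the peak midpoint, and no exon annotation was used, so positions are given only as inside or outside a span. The list came from islets and does not separate cell types, so a missing peak does not show absence of Glis3 binding in delta cells.

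Sst had 1 peak in its window, chr16:23842900-23843099, which lay 47.8 kb from its 5′ end on the downstream side, with no gene's 5′ end nearer than that of Sst. No peak lay inside Sst or near its start. Hhex had a peak at chr19:37434983-37435182, 242 bp inside the gene from its 5′ end, and another 23.3 kb downstream whose nearest gene start was that of 1700122C19Rik. Casr had 5 peaks, all inside its span, at 433 bp and at 5.8, 18.8, 35.4 and 36.8 kb from the 5′ end. Fxyd6 had a peak across its start (chr9:45370116-45370315, midpoint 31 bp inside), one 572 bp upstream, and others at 8.7 and 18.4 kb inside the span, the last nearer to the start of Fxyd2. Frzb had a peak across its start (chr2:80447220-80447419, midpoint 76 bp inside), one at 723 bp inside and one 48.3 kb away beyond its 3′ end.

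Hadh, the member that fell, had a peak at chr3:131271760-131271959, 241 bp inside the gene, and one 40.4 kb from its 5′ end just past its 3′ end. The 2 upstream peaks of its window, at 30.8 and 48.3 kb, were nearer to the start of Cyp2u1. Ptprz1, the member that rose, had no peak within 50 kb, and the nearest was 228 kb from its span of 177.4 kb. The nearest peak was 52.0 kb from Ghsr, 69.6 kb from Lepr and 848.5 kb from Spock3. The peak nearest to Lepr sat at the 5′ end of the neighbouring gene Leprot. With 1 called member in each direction, 1 with a peak at its start and 1 without any in the window, no relation between peaks and changes was tested.

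**Figure D5:**
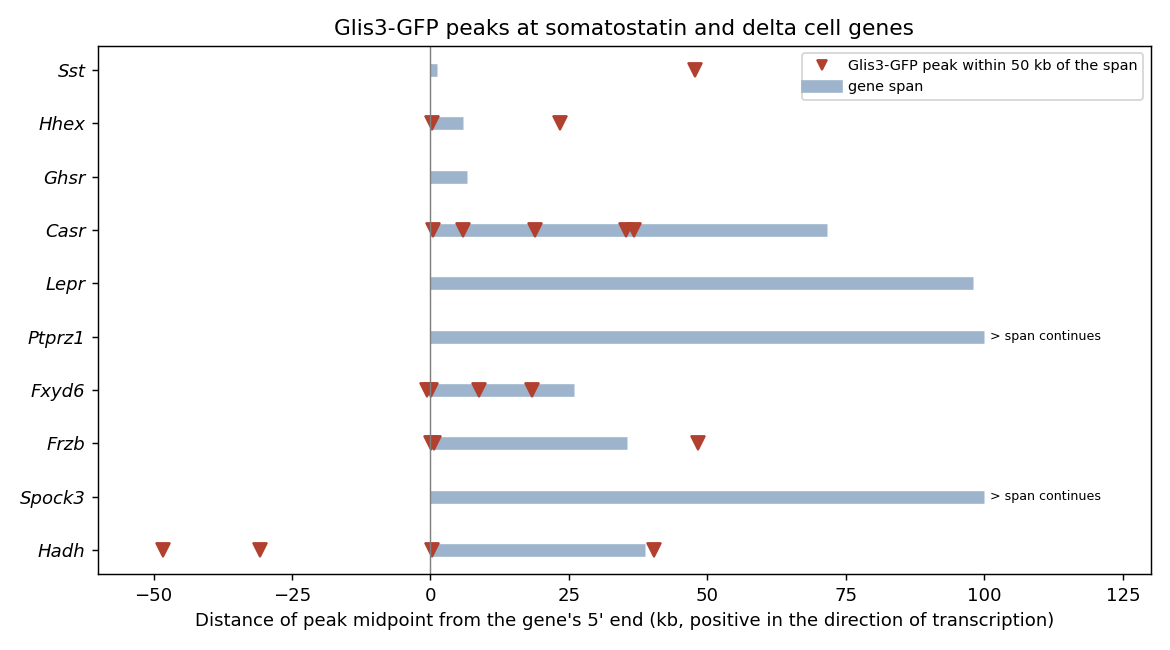
Position of Glis3-GFP peak midpoints (red triangles) relative to the 5′ end of each gene (x axis, kb, positive in the direction of transcription), with gene spans as blue bars. Hhex, Casr, Fxyd6, Frzb and Hadh have a peak within 1 kb of the 5′ end, Sst has 1 at 47.8 kb, and Ghsr, Lepr, Ptprz1 and Spock3 have none in the window.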

How the data were processed

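The authors deposited whole-number counts per gene for 7 RNA libraries, without normalisation, with symbols, Entrez identifiers and coordinates per the file headers. Build mm10 and the tools STAR 2.5, Subread featureCounts 1.5.0-p1, DESeq2, Bowtie 1.2, cutadapt 1.2.1, HOMER 4.9.1, Picard 1.110 and bedtools 2.24.0 are named without roles per the submitters' processing notes. Strand setting and annotation are not given in the sources used here. Peaks are deposited intervals with no score.

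Groups were compared with edgeR 4.0.16 in R 4.3.3 (filterByExpr, TMM factors, robust quasi-likelihood F test), with Benjamini-Hochberg adjustment over all 14529 tested genes and a threshold of 0.05. CPM are TMM-normalised, and SE is the absolute log2 fold change over the square root of F. CPM carries no gene length, so levels are not compared between genes. The fit was tested on simulated data. No libraries of a group were copies of each other (chi-square per degree of freedom 23.4 to 95.4). Named genes were the 10 members, the called genes of 21 lists, a set of hormone and receptor genes, and the 5 genes with the highest r with Sst (log2 CPM, prior count 2). Members and lists were chosen with earlier results of these data known. Ratios of reads were compared by exact permutation tests. Alternatives were RLE factors, library size alone, other filters (none, or at least 1 CPM in 3 libraries), leaving out the 10 most abundant genes, DESeq2 1.42.0, limma-voom (limma 3.58.1), a replicate block, leaving out each library, an adjusted p under 0.01, scaling to equal Sst counts, and other peak windows. The window of 1 kb, the split of genes at 10 CPM, the ratios to Gcg and Ins2 and the further genes named beyond this rule were chosen after seeing the data. A few list genes count in the list totals and are not reported here by name.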

Additional observations from a re-analysis of the deposited data

Results flagged for a closer look

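A library stood apart from the other 3 controls in 3 of the 55 named genes examined, and chance alone flags about 1 group in 20. Ghsr had 1.05 CPM in control 4, below the 2.74 to 2.96 CPM of the other controls. Ffar4 had 14.8 CPM in control 4, just below the 16.8 to 17.1 CPM of the others. Pgc had 0.0696 CPM in control 1, from 2 counts and under the floor of 3 counts, and no count in controls 2 to 4. With the other controls at 0, any count is flagged.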

How the results depend on the processing

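The rise of Ptprz1 (log2 1.82 to 2.08) and the fall of Hadh (log2 -0.81 to -0.48) were called under all 15 alternatives of scaling, filter, tool, block and left-out library, and also with libraries scaled to equal Sst counts. Members called lower numbered 2, against 1, under limma-voom, under the replicate block and without labelled knockout 3, with Ghsr the added gene (edgeR adjusted p = 0.0306 with the block), and leaving out a library gave 1 to 2. Ghsr was also called when scaled to equal Sst counts (-3.05, edgeR adjusted p = 0.0483). Members called higher numbered 2 with library size alone, where Sst was added, and 1 to 1 over the left-out libraries. Over all genes, lower calls numbered 324 with library size alone and 336 at an adjusted p under 0.01, against 763, and ran from 541 to 825 over the left-out libraries. Higher calls numbered 731 at that threshold, against 1268, and ran from 934 to 1142. The cause of these shifts was not tested. Signs turned for genes that did not pass: Lepr (-0.87 to 0.26), Crhr2 (-0.35 to 0.52) and Ghrl (-0.019 to 0.35) over the left-out libraries, Crhr2 under limma-voom (-0.30) and the replicate block (-0.078), and Fxyd6 scaled to equal Sst counts (-0.070). The 3 shared replicate numbers do not pair the mice by the labels, and deviations of same-numbered libraries correlated at 0.126, 0.080 and 0.092, with 5 of 6 libraries closest to their own number. Under the replicate block Ucn3 was called (log2 -0.61, edgeR adjusted p = 0.00265), 8 of 8 acinar markers were called higher, and Irx1 and Irx2 were not called (edgeR adjusted p = 0.081 and 0.074). Of the other single-gene results, 749 kept direction and side of the threshold, 58 lost and 14 gained a call. Members with a peak nearby numbered 5 within 10 kb, 8 within 100 kb and 6 within 50 kb of the 5′ end, 7 had the 5′ end closest to at least 1 peak, and 5 had one within 1 kb. At 3 to 54 counts per library, Lepr allows no statement on a difference, and Ghsr rests on 22 counts in the labelled knockouts.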
